A study of Boehmeria nivea with 6 samples.

Results

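The comparison of leaf with root in ramie (Boehmeria nivea), a perennial nettle relative grown for the bast fibres of its stem, used 4 of the 6 RNA-seq libraries in the study. These were leaf and root of the wild tenacissima accession QYZM and leaf and root of the cultivar ZSZ1, all from 30-day-old plants, with 1 library for each organ of each variety. The labels name no treatment, and they do not say how many plants went into a library. Leaf was set against root within each variety, so each gene had 2 leaf minus root differences that share no library. Of 20693 genes in the table, 14231 reached 1 FPKM (fragments scaled by gene length and by the library's total, a relative level) in at least 2 of the 4 libraries and were compared. Another 4058 had a value above 0 in at least 1 of the 4 but were left out by this filter, and 2404 were listed at 0 in all 4.

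Leaves carry out photosynthesis, and in land plants the nuclear genes for the light-harvesting and carbon-fixing proteins of the chloroplast are among the most strongly expressed genes of green tissue. Roots take up water and mineral ions, largely lack this photosynthetic programme and express genes for transport, defence and cell wall growth. The table names genes by identifier alone, so none of the genes below could be assigned to these functions. The labelled organs could not be checked against known marker genes for the same reason.

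What could be checked was whether libraries of one organ resembled each other. Over the 14231 genes, log2(FPKM + 1) correlated at r = 0.914 between the leaf libraries and at 0.867 between the root libraries, against 0.526 to 0.598 between a leaf and a root library. The QYZM root library correlated with QYZM stem at 0.864, nearly as closely as with ZSZ1 root, whereas ZSZ1 root and ZSZ1 stem reached 0.743. A set chosen without the root libraries, after the values had been seen, gives the root level of some leaf genes. Being chosen for low stem levels, it cannot show how root resembles stem. It held 84 genes at least 16-fold higher in leaf than in stem in both varieties. In QYZM root these stood at a median of 0.619% of their leaf level (quartiles 0.273% and 1.4%), with 4 listed at 0. In ZSZ1 root the median was 0.271% (quartiles 0.0194% and 2.55%), with 20 listed at 0. Of the 84, 52 were higher in QYZM root than in ZSZ1 root. The share over all genes is not given here, so this count cannot be read as a trait of these genes. Most of these genes were still at least 16-fold higher in leaf than in root, 76 in QYZM and 73 in ZSZ1. The part of the resemblance between QYZM root and QYZM stem in the differences below was not tested.

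Leaf and root differed in a large share of their genes, and the 2 organs differed in an unequal way. Many genes were modestly lower in leaf, while with 1 FPKM added before taking logs the large differences were mostly genes higher in leaf. At 4-fold or more in both varieties 805 genes were then higher and 569 lower. With 0.1 FPKM added instead the numbers were nearly equal, at 1054 and 1042. On the values as deposited, 1684 genes were higher and 3688 lower in leaf, which is 11.8% and 25.9% of the genes tested and 37.7% together. These calls come from a limma fit of organ and variety over all 6 libraries, with a difference of 2-fold or more in log2(FPKM + 1) and a p, adjusted by Benjamini-Hochberg, below 0.05. Each of the 5372 called genes had the same direction in both varieties. This was largely built in, since a disagreement between the varieties enters the error term of the fit. The median difference was 2.26 log2 units among the genes called higher and -1.49 among those called lower. In bulk tissue, fewer cells of a type and less RNA per cell cannot be told apart. With 1 library per organ and variety, the p-values set the leaf minus root difference against departures from additivity among these 6 libraries, and they measure no spread between plants. The standard errors (SE) given below come from the same error term, moderated over all genes. They do not give the gap between the 2 varieties. The fit called 0 genes without the QYZM leaf library (6404 at an unadjusted p below 0.05), 372 without ZSZ1 leaf (288 higher, 84 lower) and 3469 without ZSZ1 root (1420 higher, 2049 lower).

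The balance of higher and lower genes depended on how the libraries were scaled. As deposited, the median leaf minus root difference was -0.38 in QYZM and -0.76 in ZSZ1, and 35.1% and 26.8% of genes were higher in leaf. Median-of-ratios scaling, which divides each library by its typical ratio to the geometric mean of all 4, raised the leaf to root ratio 1.34 times in QYZM and 1.85 times in ZSZ1. The medians then stood at -0.01 and -0.04, as the method is built to give, and 49.2% and 48% of genes were higher in leaf. After this scaling over the 6 libraries limma called 2344 genes higher and 1377 lower, or 16.5% and 9.68% of those tested. Of these, 1677 and 1377 had the same call on the deposited values, and 0 had the opposite call. Under quantile normalization 2048 were higher and 2058 lower, and a threshold of 4-fold on the deposited values 970 and 895.

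Size classes were set by the smaller of the 2 varieties' differences, so a gene counts as 4-fold higher only if it was so in QYZM and in ZSZ1. As deposited, 805 genes were at least 4-fold higher in leaf (5.66% of the 14231) and 569 at least 4-fold lower (4%). The classes differed in balance. Below 2-fold there were 1585 genes higher and 5801 lower in leaf, and between 2-fold and 4-fold 779 and 2170. Between 4-fold and 16-fold the numbers were close, at 586 and 517. Between 16-fold and 64-fold 170 genes were higher and 44 lower, and at 64-fold or more 49 and 8. The limma fit called 797 of the 805 and 553 of the 569, with adjusted p up to 0.0853 and 0.104 for the rest. Both sorts of count use the same differences and are not separate evidence.

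**Figure D1:**
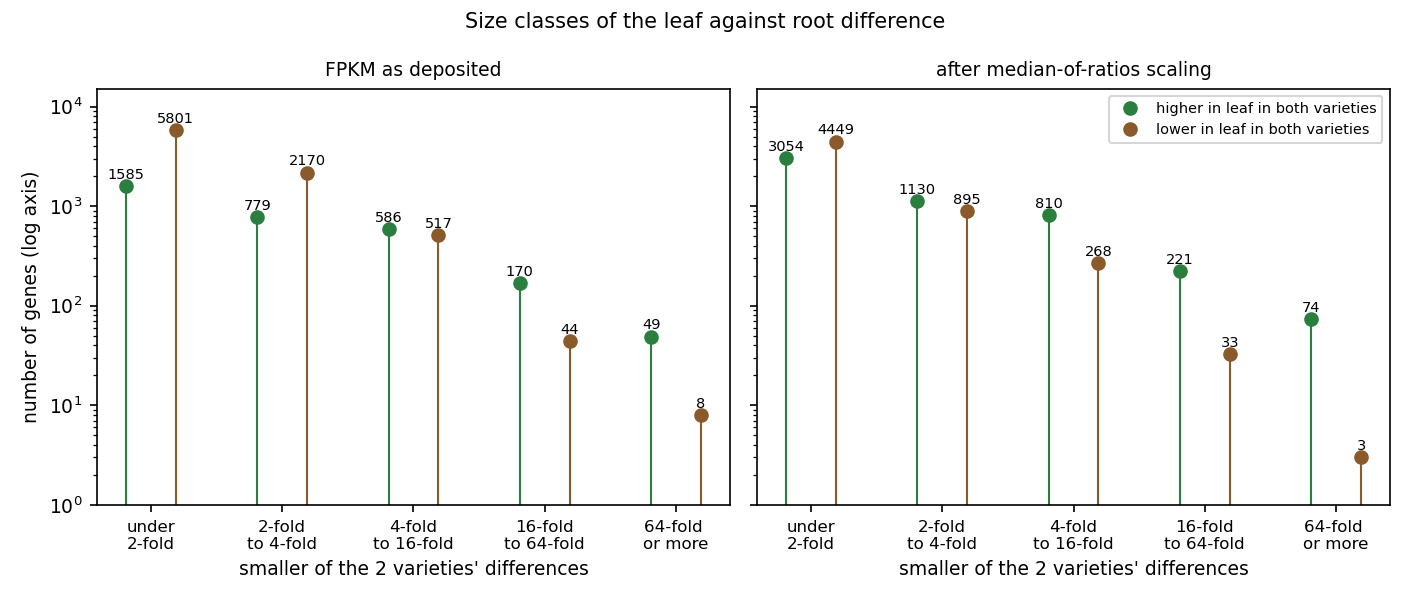
Number of genes (log axis) by size class of the leaf against root difference, for genes with the same direction in both varieties, as deposited (left) and after median-of-ratios scaling (right). Each point is a count, printed above it; as deposited the genes lower in leaf outnumber the genes higher in leaf below 4-fold, and the order turns above it, with 49 higher and 8 lower at 64-fold or more.

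After median-of-ratios scaling 1105 genes were at least 4-fold higher in leaf (7.76%) and 304 at least 4-fold lower (2.14%). All 805 genes of the deposited higher class stayed in it, and all 304 of the lower class belonged to the 569 found before scaling. This had to follow, since the scaling raised both leaf libraries and lowered both root libraries, so differences could move only towards leaf. Scaling left the largest differences the most one-sided of all: 221 genes were higher and 33 lower between 16-fold and 64-fold, and 74 and 3 at 64-fold or more. Between 2-fold and 4-fold, by contrast, the balance turned from 779 against 2170 to 1130 against 895. The excess of genes higher in leaf at 16-fold and beyond was present as deposited, and under this scaling it could only grow. These larger classes were counted only with 1 FPKM added before taking logs. The excess of lower genes between 2-fold and 4-fold was present only on the deposited scale of these 2.

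The 8 genes with the largest differences in favour of leaf in both varieties stood at 241 FPKM or more in leaf and at 5.75 FPKM or less in root. Bnt04G006845 had leaf levels of 2655 FPKM (QYZM) and 2695 FPKM (ZSZ1) against 2 FPKM in root of QYZM, and was listed at 0 in root of ZSZ1. Its log2 difference was 10.59 ± 0.46 (SE, limma adjusted p = 0.000478). Bnt05G008072 had leaf levels of 512 FPKM (QYZM) and 415 FPKM (ZSZ1), with 0.309 FPKM in root of QYZM and again a 0 listed for root of ZSZ1 (8.66 ± 0.29, SE, limma adjusted p = 0.000478). Bnt03G003989 reached 2255 FPKM (QYZM) and 3475 FPKM (ZSZ1) in leaf, with 5.23 and 1.94 FPKM in the corresponding roots (9.35 ± 0.48, SE, limma adjusted p = 0.000508). In each of the 3 genes both leaf libraries were far above both root libraries, and the difference was larger in ZSZ1 than in QYZM, where the root value was higher. Where a library is listed at 0 the log2 difference depends on the 1 FPKM added before taking logs.

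The next genes of this group followed the same pattern. Bnt01G001161 had 2322 FPKM (QYZM) and 1312 FPKM (ZSZ1) in leaf, against 5.75 FPKM and a listed 0 in root. Bnt03G004854 had 812 and 577 FPKM in leaf while root stood at 1.94 and 0.32 FPKM, and Bnt01G000137 had 917 and 591 against 2.4 and 0.124. BntUnG020509 had 587 and 784 FPKM in leaf and a root level of 2.16 and 0.377 FPKM. One gene of the 8 differed from this in having similar traces in both roots. Bnt02G003072 stood at 293 and 241 FPKM in QYZM and ZSZ1 leaf, at 0.0642 and 0.0729 FPKM in root, with still lower stem values of 0.0173 and 0.0184 FPKM. Its differences of 8.11 and 7.82 were close in the 2 varieties. All 8 genes were called, with limma adjusted p of 0.000478 to 0.000792, as were all 49 genes at 64-fold or more higher in leaf. The calls use the differences that chose these genes, so they are not separate evidence. Of all genes tested, 11.8% were called higher.

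**Figure D2:**
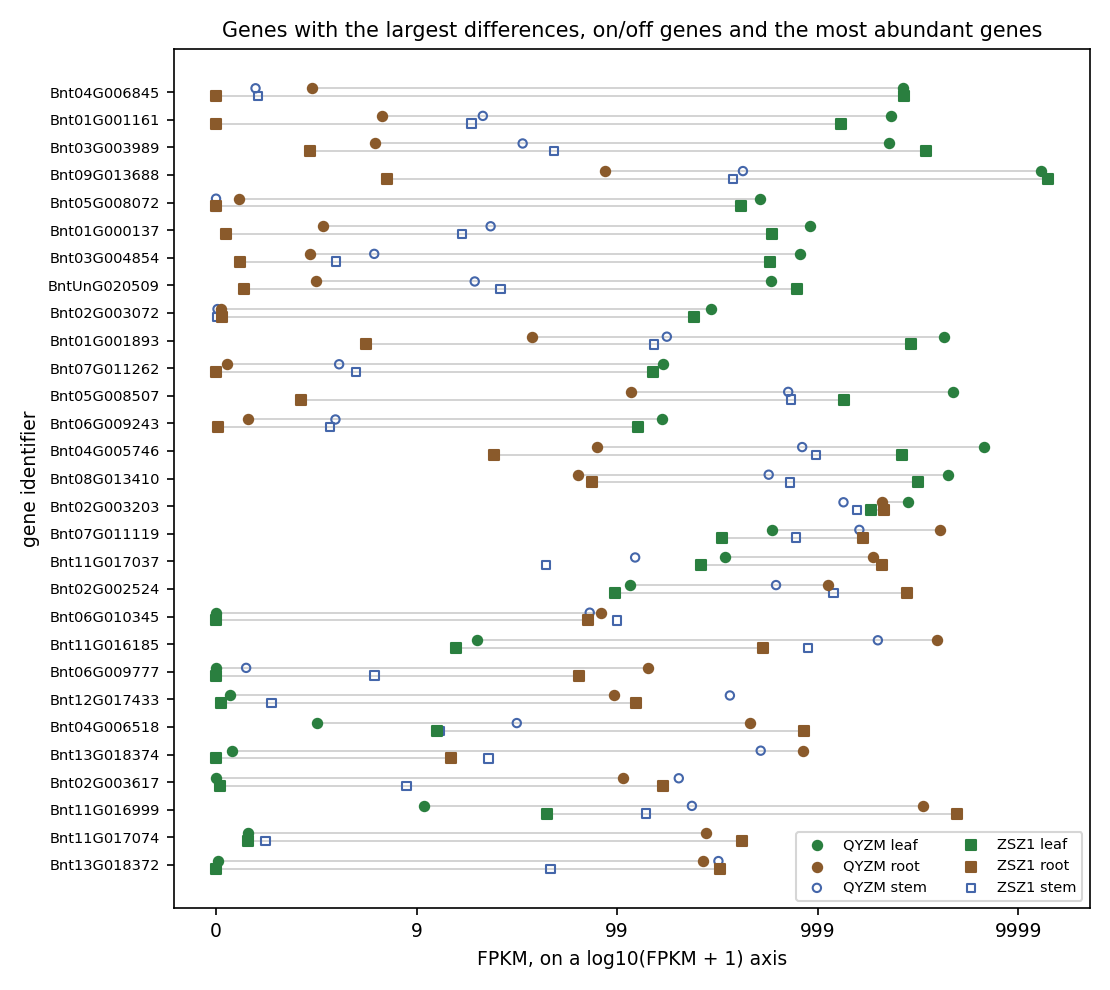
FPKM of the genes chosen for the largest differences, for being on in one organ and off in the other, or for the largest share of a library, on a log10(FPKM + 1) axis; filled points are leaf (green) and root (brown), open points stem, with circles for QYZM and squares for ZSZ1. In 15 genes at the top leaf lies above root in both varieties, with Bnt09G013688 at 13029 and 14100 FPKM in leaf, and in 13 genes at the bottom root lies above leaf; Bnt02G003203 lies between them, with overlapping organs.

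Genes with differences this large in the other direction were fewer. Bnt11G016999, the most abundant gene of ZSZ1 root, stood at 3339 FPKM (QYZM) and 4971 FPKM (ZSZ1) in root, while the leaves had 9.85 and 43.8 FPKM (log2 difference -7.53 ± 0.67, SE, limma adjusted p = 0.00165). Bnt04G006518 stood at 457 and 857 FPKM in QYZM and ZSZ1 root against 2.18 and 11.7 FPKM in leaf. Bnt11G017074 stood at 277 and 418 FPKM in root, while leaf had 0.449 and 0.451 FPKM. In stem these 3 genes stood at 235 and 138, 30.6 and 12.1, and 0.451 and 0.762 FPKM in QYZM and ZSZ1, well below root in each variety.

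The other 5 genes of the group were listed at or near 0 in leaf, but differed in how stem behaved. Bnt06G010345 was listed at 0 in both leaf libraries and had 81.7 and 70.5 FPKM in QYZM and ZSZ1 root, with stem at 72 and 98.8 FPKM (-6.27 ± 0.29, SE, limma adjusted p = 0.000478). Bnt06G009777, also listed at 0 in both leaves, had 141 and 63.3 FPKM in root and 0.413 and 5.17 in stem (-6.58 ± 0.75, SE, limma adjusted p = 0.00313). The first was thus as high in stem as in root, and the second was high in root alone.

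In the other 3, stem separated the varieties. Bnt13G018372 had 268 and 324 FPKM in QYZM and ZSZ1 root, but 319 FPKM in QYZM stem and 45.6 in ZSZ1 stem. Bnt02G003617 had 106 and 169 FPKM in root, with 202 and 7.91 FPKM in QYZM and ZSZ1 stem. Bnt12G017433 had 95.1 and 123 FPKM in root, with 364 FPKM in QYZM stem against 0.888 in ZSZ1 stem. The error term holds these stem differences. Bnt12G017433 had -6.61 ± 1.87 (limma adjusted p = 0.0376), although its leaf minus root differences of -6.36 and -6.86 were close, and the call was lost after median-of-ratios scaling (-6.36, limma adjusted p = 0.0758). Without ZSZ1 root it was lost too.

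On/off genes were defined by level: at least 5 FPKM in both libraries of one organ and below 0.5 FPKM in both of the other. By this rule 98 genes were on in leaf and off in root, and 96 were on in root and off in leaf. The 98 had medians of 19 and 12 FPKM in QYZM and ZSZ1 leaf and made up 0.83% and 0.99% of those libraries' summed FPKM. The 96 had medians of 13.5 and 11.9 FPKM in root and held 0.99% and 0.87%. On/off genes were thus a small and mostly low part of each organ's RNA. After median-of-ratios scaling the same bounds gave 144 genes on in leaf and 70 on in root. With off meaning listed at 0 in both libraries, 8 genes were on in leaf and 31 on in root as deposited, 10 and 25 after scaling. What a listed 0 stands for is not known, since read counts were not used here.

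The 4 most abundant genes that were on in leaf were alike in the 2 varieties. Besides Bnt05G008072 and Bnt02G003072 above, Bnt07G011262 had 168 and 150 FPKM in QYZM and ZSZ1 leaf, against 0.129 FPKM and a listed 0 in root (log2 difference 7.23 ± 0.29, SE, limma adjusted p = 0.000478). Bnt06G009243 had 166 and 126 FPKM in leaf, while root had 0.448 and 0.0245 FPKM. Among the 4 most abundant that were on in root, one was not alike. Bnt13G018374 stood at 840 FPKM in QYZM root and at 13.8 FPKM in ZSZ1 root, with 0.204 FPKM in QYZM leaf and a listed 0 in ZSZ1 leaf, and its stem values were 519 and 21.8 FPKM. The other 3, Bnt11G017074, Bnt13G018372 and Bnt02G003617, are described above, and each was higher in ZSZ1 root than in QYZM root.

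Stem, which the rule did not use, divided the 2 kinds of on/off gene. Of the 98 genes on in leaf, 3 were also on in both stem libraries and 38 were off in both. Of the 96 genes on in root, 29 were on in both stems and 26 off in both, with 53 on in QYZM stem and 31 in ZSZ1 stem. Taken in each variety alone, the rule gave 185 genes on in leaf and off in root in QYZM and 325 in ZSZ1. The 98 common to both are 53% of the first list and 30.2% of the second. For genes on in root there were 216 and 293, and the 96 in common are 44.4% and 32.8%. A gene on in leaf of one variety and on in root of the other occurred 2 times. One was Bnt06G009161, with 2777 FPKM in QYZM leaf, a listed 0 in QYZM root and ZSZ1 leaf, and 100 FPKM in ZSZ1 root. The other, picked out after its values were seen, was Bnt07G011733, with 0.492 and 5.22 FPKM in QYZM leaf and root, 8.45 FPKM in ZSZ1 leaf and a listed 0 in ZSZ1 root.

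Leaf RNA was concentrated in fewer genes than root RNA. In QYZM leaf 52 genes and in ZSZ1 leaf 57 genes made up 25% of the summed FPKM, against 165 and 191 in the roots. For 50% of the sum the numbers were 479 and 468 in leaf against 940 and 956 in root. Both leaf libraries lay on the same side of both root libraries in each of these counts, and the 2 varieties differed less than the 2 organs.

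The genes at least 4-fold higher in leaf in both varieties made up 40.8% of all FPKM in the leaf library of QYZM and 42.5% in that of ZSZ1, against 1.75% and 1.23% in the roots. The 49 genes at 64-fold or more alone held 15.6% and 17% of the leaf libraries. The genes at least 4-fold lower in leaf held 15.2% of QYZM root and 15.2% of ZSZ1 root, and 1.41% and 1.58% of the leaves. The 19319 genes outside both groups therefore shared 57.8% and 56% of the leaf sums and 83.1% and 83.5% of the root sums. These shares describe groups chosen for their difference and carry no test. After median-of-ratios scaling, which changes the membership but not a gene's share of its library, the groups held on average 45.1% of the leaf sums and 8.1% of the root sums.

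**Figure D3:**
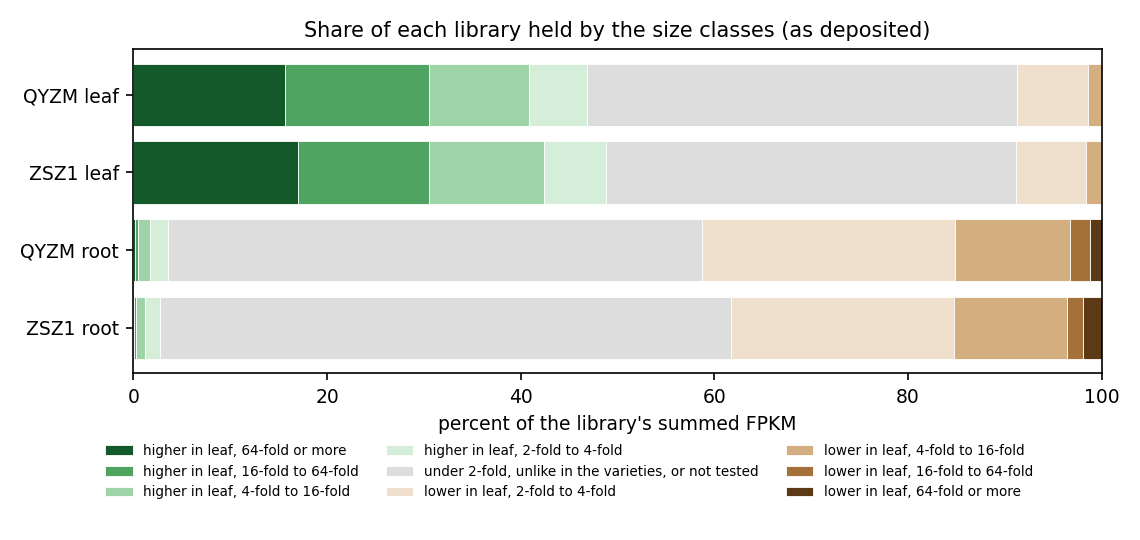
Percent of each library's summed FPKM held by genes of each size class, as deposited; green parts are genes higher in leaf, brown parts genes lower in leaf, darker for larger differences, and grey all remaining genes. The genes at least 4-fold higher in leaf fill 40.8% and 42.5% of the leaf bars and under 2% of the root bars, and the genes at least 4-fold lower fill 15.2% of each root bar.

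The most abundant genes show how unlike the organs are at the top of their range. Of the 100 highest genes, 82 were common to the leaf libraries and 54 to the root libraries, while a leaf and a root library shared 8 to 11. Of the 82 shared leaf genes, 73 were at least 4-fold and 62 at least 16-fold higher in leaf in both varieties. Of the 54 shared root genes, 17 were at least 4-fold lower in leaf and 4 at least 16-fold. High abundance in leaf thus went with low root levels more often than the reverse, though both counts are descriptions of genes selected on the same libraries.

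Bnt09G013688 led both leaf libraries. Its leaf levels were 13029 FPKM (QYZM) and 14100 FPKM (ZSZ1), or 3.01% and 4.6% of their sums, with root levels of 86.2 FPKM (QYZM) and 6.12 FPKM (ZSZ1). Its log2 difference was 9.09 ± 0.96 (SE, limma adjusted p = 0.00249), with 7.22 in QYZM and 10.95 in ZSZ1. The leaf levels were alike, and the root levels differed more than 10-fold between varieties. Of the other 5 leading leaf genes, Bnt01G001893 (4277 and 2911 FPKM in leaf) and Bnt05G008507 (4753 and 1352 FPKM) were also lower in ZSZ1 root than in QYZM root, with 36.5 and 4.61 FPKM for the first and 116 and 1.65 FPKM for the second. Bnt04G005746, at 6773 and 2627 FPKM in leaf, had 78.4 FPKM in QYZM root and 23.4 in ZSZ1 root. Bnt08G013410 was not lower in ZSZ1 root: it had 4456 and 3166 FPKM in leaf and 63 and 73.8 FPKM in root. Bnt03G003989, described above, is the remaining gene of the 6. All 6 were called higher, against 11.8% of all genes tested, and choosing genes for a high leaf level favours such a call.

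The leading root genes were of several kinds. Bnt11G016999, described above, was far lower in leaf than in root. Bnt11G016185 had 3957 FPKM in QYZM root and 533 in ZSZ1 root against 19.1 and 14.8 FPKM in leaf, and was also high in stem, at 1995 FPKM (QYZM) and 896 FPKM (ZSZ1; log2 difference -6.35 ± 0.65, SE, limma adjusted p = 0.00229). Bnt02G002524 had 1123 and 2793 FPKM in QYZM and ZSZ1 root against 115 and 96.5 in leaf (-4.06 ± 0.54, SE, limma adjusted p = 0.00513). The next 2 were abundant in both organs yet several-fold higher in root. Bnt07G011119 had 4056 and 1682 FPKM in root against 594 and 332 in leaf (-2.55 ± 0.54, SE, limma adjusted p = 0.0172), and lost its call without either root library.

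Bnt11G017037 had 1888 and 2084 FPKM in root, 344 and 262 FPKM in leaf, and only 122 and 43.1 FPKM in stem, so that here leaf stood nearer to root than stem did. The last of the 6, Bnt02G003203, was higher in leaf in QYZM and higher in root in ZSZ1, and was not called. It had 2806 and 1838 FPKM in QYZM and ZSZ1 leaf and 2085 and 2135 FPKM in root (log2 difference 0.11 ± 0.67, SE, limma adjusted p = 0.907). Its direction in ZSZ1 held only on the deposited scale: the differences were 0.43 and -0.22 in QYZM and ZSZ1 as deposited, and 0.85 and 0.67 after median-of-ratios scaling.

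At the other end, 122 genes were at 100 FPKM or more in all 4 libraries. As deposited, 51 of these were under 2-fold in both varieties, and after median-of-ratios scaling 70. None was at least 4-fold higher in leaf in both varieties and 8 were at least 4-fold lower. The 4 with the smallest differences after scaling had deposited differences close to the shift between the scales (0.43 log2 units in QYZM and 0.88 in ZSZ1). The choice fixed this, since at these levels the scales differ by that shift. Bnt07G011549 stood at 128 and 141 FPKM in QYZM and ZSZ1 leaf and 177 and 260 FPKM in root, differences of -0.47 and -0.88 as deposited and of -0.04 and 0.00 after scaling. Bnt14G019484 (466 and 268 FPKM in leaf, 602 and 506 in root), Bnt01G001602 (127 and 128, 181 and 248) and Bnt11G017063 (195 and 125, 277 and 255) moved likewise, from between -0.37 and -1.02 to between 0.06 and -0.14. Whether these genes or the deposited scale is level between organs cannot be read from relative values.

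Differences between leaf and root grew with abundance, most of all for genes higher in leaf. The share of genes at least 4-fold higher in leaf in both varieties was 2.22% among genes with a mean of 2 to 5 FPKM over the 4 libraries, 4.31% at 10 to 20, 14.7% at 50 to 100 and 21.8% at 100 to 500. Of the 53 genes with a mean of 500 FPKM or more, 31 were in this class and 9 were at least 4-fold lower. The share at least 4-fold lower moved less, from 3.6% at 2 to 5 FPKM to 10.8% at 100 to 500. The mean itself contains the organ where a gene is high, so this trend is partly built in. The added 1 also holds down the differences of genes below 2 FPKM, where 0.21% and 0.35% passed.

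The 2 varieties mostly agreed in direction and less closely in size. The leaf minus root differences correlated at r = 0.819 across the 14231 genes (Spearman 0.735) as deposited and at 0.823 (0.742) after median-of-ratios scaling. Of all genes, 82.3% had the same direction in QYZM and ZSZ1 as deposited and 76.9% after scaling. As deposited, only 35.1% of genes in QYZM and 26.8% in ZSZ1 were higher in leaf, which by itself raises the first share. Where leaf and root differed by 2-fold or more in both varieties, the same direction was seen in 4323 of 4432 (97.5%) and in 3434 of 3527 (97.4%). For 75.9% of genes the 2 differences lay within 2-fold of each other, and for 5.18% they were 4-fold or more apart; after scaling these shares were 79.6% and 4.69%. The median gap (QYZM minus ZSZ1) was 0.32 as deposited and -0.04 after scaling. These are descriptions across genes, which are not independent replicates.

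**Figure D4:**
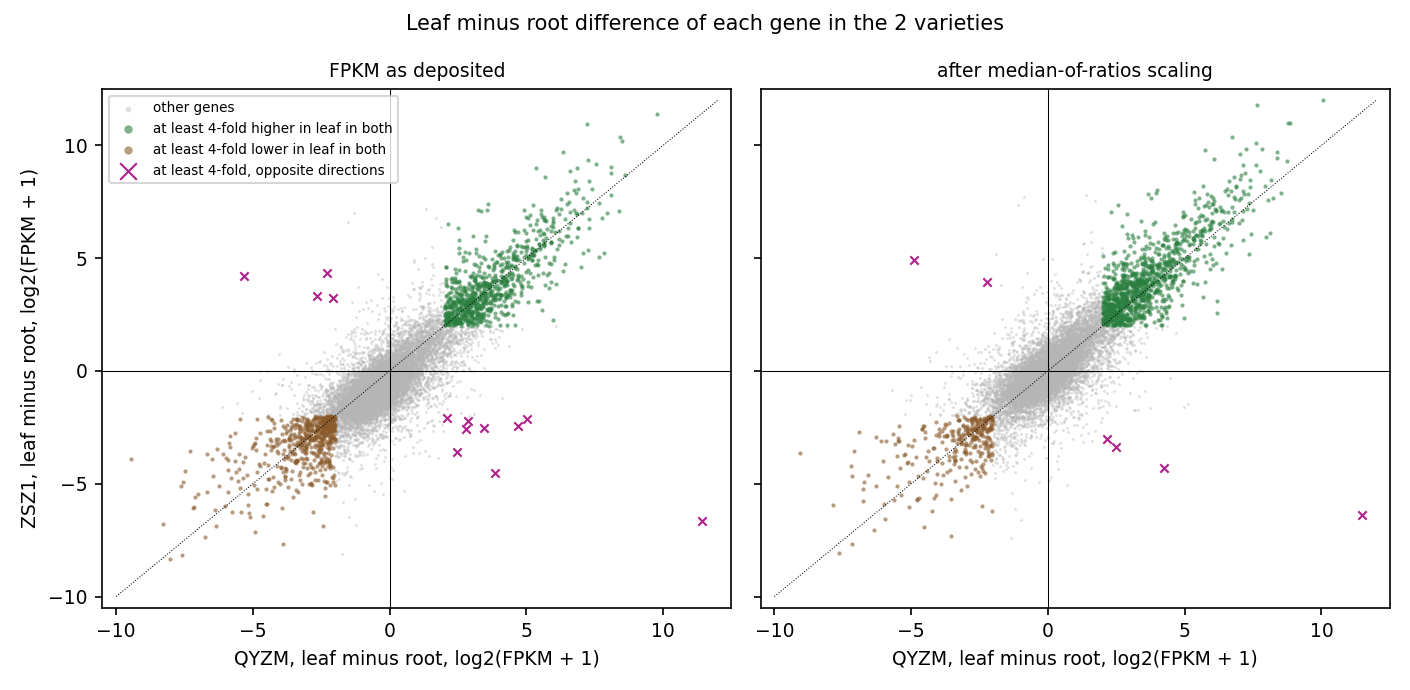
Leaf minus root difference of each gene in QYZM (horizontal) and ZSZ1 (vertical) on the log2(FPKM + 1) scale, as deposited (left) and after median-of-ratios scaling (right); points are genes, green and brown at least 4-fold in one direction in both varieties, crosses at least 4-fold in opposite directions, and the dotted line marks equal differences. Genes follow the dotted line (r = 0.819 and 0.823), and the crosses number 13 on the left and 6 on the right.

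The correlation between varieties rose with abundance up to 500 FPKM. By mean level it was 0.686 below 2 FPKM, 0.782 at 5 to 10, 0.841 at 20 to 50 and 0.919 at 100 to 500 FPKM, with 0.829 for the 53 genes at 500 FPKM or more. A correlation also depends on the spread of the differences. Genes at least 4-fold higher in leaf rose from 0.21% below 2 FPKM to 21.8% at 100 to 500, so the rise does not by itself show closer agreement. Where both varieties differed by 2-fold or more, the share with the same direction was high at every level, from 95.8% below 2 FPKM to 98.4% at 10 to 20. Requiring 2-fold in both varieties removes most genes of unlike direction beforehand, so these shares say little about low genes as a whole.

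Genes picked for a large difference in one variety were then read in the other. Of 1127 genes at least 4-fold higher in QYZM leaf than QYZM root, 89.7% were at least 2-fold and 71.4% at least 4-fold higher in ZSZ1. Of 1070 picked in ZSZ1, 91.8% and 75.2% were so in QYZM. Genes lower in leaf carried over unevenly, from lists of unequal length. Of 918 picked in QYZM, 89.4% were at least 2-fold and 62% at least 4-fold lower in ZSZ1, whereas of 1401 picked in ZSZ1, 76.1% and 40.6% were so in QYZM. After median-of-ratios scaling the lower lists held 563 and 669 genes, with 81% and 76.5% at least 2-fold lower in the other variety, and 54% and 45.4% at least 4-fold. The higher lists then held 1385 and 1670 genes, with 92.5% and 89.5% at least 2-fold and 79.8% and 66.2% at least 4-fold higher in the other variety. At 4-fold, the lower lists were thus the more uneven as deposited and the higher lists after scaling. Both 4-fold shares of a direction count the same genes, so their inequality only restates the list lengths.

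Opposite differences were rare when large. As deposited, 109 genes were at least 2-fold apart in both varieties in opposite directions, 78 of them higher in QYZM leaf, and 13 were at least 4-fold apart, 9 of them higher in QYZM leaf. After scaling these were 93, of which 55 were higher in QYZM leaf, and 6, of which 4 were. Bnt06G009161, with the values given above, stood out with differences of 11.44 in QYZM and -6.66 in ZSZ1. In both stems it was at similar levels, 205 and 167 FPKM. Bnt06G009620 ran the other way, with 0.517 FPKM in QYZM leaf, 59.2 in QYZM root, 35.1 in ZSZ1 leaf and 0.974 in ZSZ1 root. Since each organ of each variety had 1 library, whether a gene's difference depends on the variety was not tested.

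The stem libraries, which took no part in choosing the 4-fold genes, mostly stood between leaf and root. The choice of a wide gap between leaf and root itself favours this. For the 805 genes higher in leaf, the median level in QYZM was 50.7 FPKM in leaf, 7.98 in stem and 2.88 in root, and in ZSZ1 40.2, 8.32 and 1.6. Stem lay between the other organs for 82.6% of these genes in QYZM and 84.2% in ZSZ1. On the log scale it was nearer to root than to leaf for 84% in QYZM and 66.2% in ZSZ1. For the 569 genes lower in leaf, the medians in QYZM were 1.52 FPKM in leaf, 13.6 in stem and 25.5 in root, and in ZSZ1 1.51, 10.3 and 28.2. Stem lay between the other organs for fewer of these, 69.1% in QYZM and 66.8% in ZSZ1. It stood at or above root for 123 genes in QYZM and 102 in ZSZ1, and at or below leaf for 53 and 87. Stem was nearer to root for 70.8% of the lower genes in QYZM and 55.5% in ZSZ1. In both groups the stem of ZSZ1 stood farther from its root than the stem of QYZM did, at a median of 1.31 against 0.80 log2 units for the higher genes and -1.29 against -0.80 for the lower. Both comparisons use the 2 root libraries that helped to choose the genes.

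**Figure D5:**
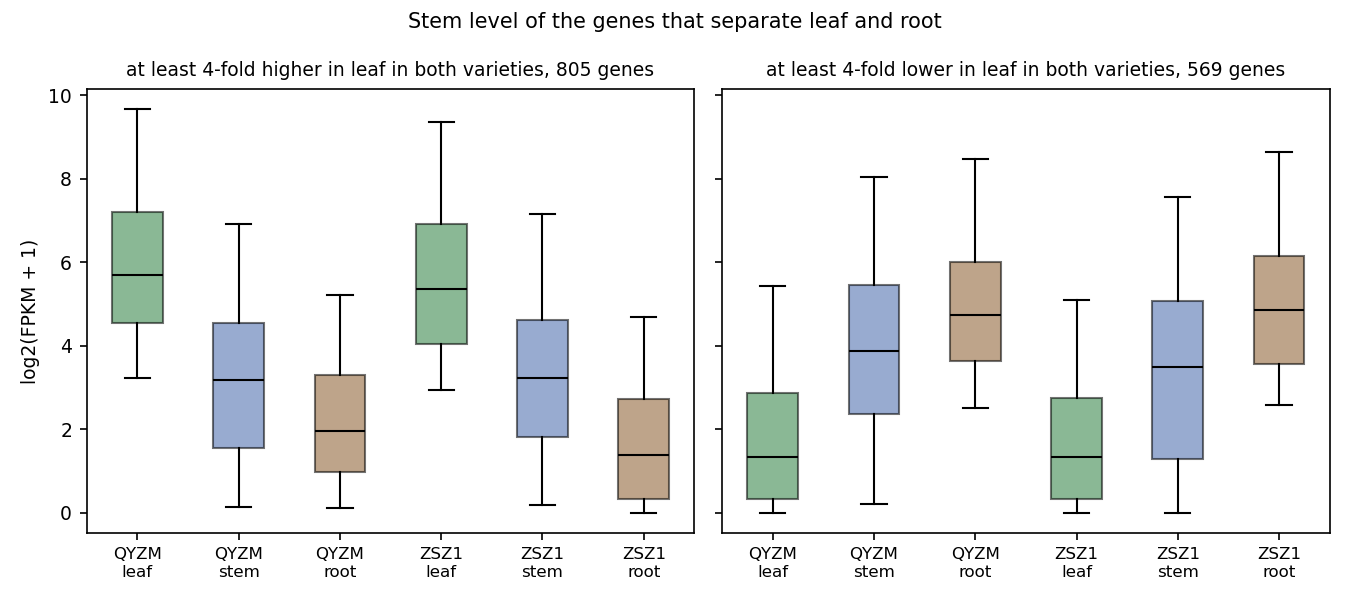
Level on the log2(FPKM + 1) scale in leaf, stem and root of each variety for the 805 genes at least 4-fold higher (left) and the 569 at least 4-fold lower (right) in leaf in both varieties; boxes span the quartiles over genes, the line is the median and whiskers reach the 5th and 95th percentiles. Leaf and root differ because they chose the genes; stem, which did not, lies between them, with medians of 7.98 and 8.32 FPKM on the left and 13.6 and 10.3 FPKM on the right.

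The genes that separate leaf from root were spread over the identifiers. Among the 14 numbered prefixes, whose meaning the table does not state, the share of tested genes at least 4-fold higher in leaf ranged from 4.67% (Bnt01) to 7.51% (Bnt07), against 5.66% overall. The share at least 4-fold lower ranged from 3.29% (Bnt10) to 4.74% (Bnt01 and Bnt06), against 4%. For the prefix Un the shares were 4.68% and 1.8%.

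Some of these genes carried consecutive numbers. Of the 805 higher genes, 108 (13.4%) fell in 52 runs of 2 or more consecutive identifiers, and of the 569 lower genes 62 (10.9%) in 28 runs. For comparison, 7.88% of the 13426 other tested genes had a higher gene as next or previous identifier, and 5.46% of 13662 had a lower gene there. These shares are descriptions with no test. No run was longer than 3 identifiers, with 4 such runs among the higher and 6 among the lower genes. In the first higher run in table order Bnt02G003086 stood at 856 and 623 FPKM in QYZM and ZSZ1 leaf against 12.2 and 17.9 FPKM in root, and its neighbours Bnt02G003085 (40.6 and 39.2 FPKM in leaf) and Bnt02G003087 (50.2 and 48.2) were high in the same way at lower levels. The second was built likewise, with Bnt04G006266 at 651 and 474 FPKM, Bnt04G006267 at 81.4 and 120 FPKM and Bnt04G006268 at 15.6 and 11.4 FPKM in leaf, and none above 13.2 FPKM in root.

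The lower runs held genes of moderate level. Bnt01G001414, Bnt01G001415 and Bnt01G001416 stood at 7.83 to 24.5 FPKM in the root libraries and at 2.75 FPKM or less in leaf. Bnt01G001639, Bnt01G001640 and Bnt01G001641 stood at 7.72 to 55.3 FPKM in root and at 8.2 FPKM or less in leaf, and were higher in stem than in root in both varieties. All 12 genes of these 4 runs were called, with limma adjusted p of 0.000631 to 0.0154. So were 797 of the 805 higher and 553 of the 569 lower genes, and the calls use the differences that chose the genes. Bnt01G001415 lost its call after median-of-ratios scaling (-1.94, limma adjusted p = 0.054). Reads shared by near-identical neighbours could have been divided among them in the authors' counting, so the levels within a run are uncertain.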

How the data were processed

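RNA-seq of leaf, root and stem of 2 ramie varieties gave 6 libraries, of which leaf and root are compared here. The authors deposited 1 table of FPKM values, 1 column per library. Bowtie2 and RSEM are the tools listed, per the submitters' processing notes; their versions, the genome build and strand handling were not given in the sources used here. Library sums ranged from 306497 FPKM (ZSZ1 leaf) to 433435 FPKM (QYZM leaf). Read counts are unknown, so no counting interval is given. If whole fragments were counted, ratios of values below 0.2 FPKM place the 4 libraries at 0.952 to 1.1 times their mean depth.

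The test was limma 3.58.1 in R 4.3.3 (organ and variety terms, all 6 libraries, mean-variance trend) on log2(FPKM + 1), over genes at 1 FPKM or more in at least 2 of the 4 libraries. With 2 residual and 3.79 prior degrees of freedom, its error term holds organ-by-variety differences as well as noise. The script was tested on simulated data. Other values and the figures were made in Python 3.11.15 (scipy 1.17.1, numpy 2.4.6, matplotlib 3.10.9, pandas 2.3.3).

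Genes, lists and bounds were chosen with earlier results of these data known. The named genes are the 8 with the largest difference each way in both varieties, the 4 most abundant on/off genes each way, the 6 with the largest mean share of leaf and of root, the 3 each way with the largest opposite differences, the 4 abundant genes with the smallest differences after scaling, and the 2 longest runs each way, with ties taken in table order. Organ marker genes could not be matched to identifiers. Alternatives covered scaling, pseudocount, filter, moderation, thresholds and leaving out libraries.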

Additional observations from a re-analysis of the deposited data

Results flagged for a closer look

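In 6 genes the leaf minus root difference ran in opposite directions in the 2 varieties, with 1 library per organ and variety. That difference between varieties was not tested. On the log2(FPKM + 1) scale Bnt06G009161 was at 11.44 in QYZM and -6.66 in ZSZ1, Bnt06G009889 at 3.87 and -4.53, and Bnt07G011946 at 2.80 and -2.57. The other 3 were lower in QYZM leaf and higher in ZSZ1 leaf: Bnt06G009620 at -5.31 and 4.19, Bnt05G007543 at -2.67 and 3.31, and Bnt09G014078 at -2.29 and 4.36. They were picked as the most extreme of 109 genes at least 2-fold apart in opposite directions.

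Behind these values, Bnt06G009889 stood at 164 FPKM in QYZM leaf and was listed at 0 in ZSZ1 leaf, with 10.3 and 22 FPKM in root. Bnt07G011946 had 40.6 and 7.4 FPKM in QYZM and ZSZ1 leaf and 4.99 and 48.9 FPKM in root. Bnt05G007543 differed most in root, at 257 FPKM in QYZM and 0.197 FPKM in ZSZ1, with 39.6 and 10.9 FPKM in leaf. Bnt09G014078 differed most in leaf, at 2.52 FPKM in QYZM and 84.4 FPKM in ZSZ1, with 16.3 and 3.17 FPKM in root.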

How the results depend on the processing

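The number of genes called by limma, 5372 as reported, was 3241 with a pseudocount of 5, 1865 at a fold threshold of 4 and 0 to 5147 with 1 library left out, and stayed within 1.5 times under the other 10 alternatives. These include 5158 from the 4 leaf and root libraries alone and 4223 without the variety term that pairs leaf with root (no replicate block). Fits without either stem library use the same leaf and root values as the 4-library fit and are not separate checks. The percent of calls higher in leaf, 31.3, became 63 after median-of-ratios scaling, 49.9 after quantile normalization, 52 at a fold threshold of 4 and 33.2 to 77.4 with 1 library left out. Genes at least 4-fold higher in leaf (805) numbered 1054 and 475 with pseudocounts of 0.1 and 5. Genes at least 4-fold lower (569) numbered 304 after median-of-ratios scaling, 1042 and 197 with pseudocounts of 0.1 and 5, and 918 in QYZM alone and 1401 in ZSZ1 alone. Genes on in leaf (98) and on in root (96) numbered 443 and 781 at 1 FPKM or more against below 1, 8 and 31 against a listed 0, and 15 and 23 at 10 FPKM or more against below 0.1. The mean share of the leaf sums held by the higher class (41.6%) was 45.1% after median-of-ratios scaling, 43.1% after quantile normalization and 39.5% with a pseudocount of 5. That of the root sums held by the lower class (15.2%) was 8.1% and 13.8% after those scalings, 14.8% at an equal total per library, and 16.4% and 12.3% with pseudocounts of 0.1 and 5. The correlation between varieties and the share of same directions among genes 2-fold apart in both ranged from 0.788 to 0.835 and from 96.4% to 98.6% under the 7 alternatives run for them. Except where an alternative itself changes the bound or removes libraries, the cause was not tested. The 10 genes named for opposite or for small differences were not called by limma (0, and 0 at an unadjusted p below 0.05). Of the other 41 named genes, 40 were called and kept their direction under all 11 alternatives, which the choice of large differences in both varieties largely fixed. All 40 lost the call without QYZM leaf and 24 without ZSZ1 leaf. The uncalled Bnt02G003203 (0.11) ranged from -0.26 to 0.48 with 1 library left out, turning negative without QYZM leaf (-0.26) and without QYZM root (-0.01), and was 0.76 after median-of-ratios scaling. Counts that need both varieties have no value with a leaf or root library left out.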

Other observations

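A few genes were listed at 0 in 1 leaf or root library while all 5 other libraries stood at 10 FPKM or more. There were 2 such genes in QYZM leaf, 2 in ZSZ1 leaf, 0 in QYZM root and 1 in ZSZ1 root. Bnt02G002916 was listed at 0 in QYZM leaf and had 51.5 FPKM in ZSZ1 leaf, 176 in QYZM root and 1136 in ZSZ1 root. Bnt06G009889 was listed at 0 in ZSZ1 leaf against 164 FPKM in QYZM leaf. Bnt04G006519 was listed at 0 in ZSZ1 root and had 10.6 FPKM in QYZM root, 140 and 168 FPKM in QYZM and ZSZ1 leaf and 382 and 132 FPKM in stem. These genes were picked out after their values were seen.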
